A study of Mus musculus with 16 samples.

Results

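Killer T cells destroy their targets by 2 routes, and the genes described here are the effector genes of both. Along the granule route, perforin (Prf1) opens pores in the membrane of the target cell, and granzymes, serine proteases stored in the same granules, pass into the cell and cleave proteins inside it. Granzyme B, the best known of them, cuts after aspartate and activates caspases, whereas granzyme A cuts after basic residues. Along the death receptor route, Fas ligand (Fasl) on the T cell surface engages the receptor Fas on the target and sets off caspase-8. In mice several granzyme genes that arose by duplication stand side by side on chromosome 14, and activation together with IL-2 is known to switch on Gzmb and Prf1 in CD8+ T cells.

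The 10 member genes were Gzma, Gzmb, Gzmc, Gzmd, Gzme, Gzmf, Gzmk, Gzmm, Prf1 and Fasl, out of 26180 annotated genes. They were named by the family and pathway they belong to, not by a measured value. ChIP-seq peaks were collected over each gene body extended by 20 kb on both sides, with the chromosome 14 granzymes taken as 1 locus, which gave 6 loci. A peak that overlapped the transcription start site (TSS) ± 1 kb by at least 1 bp was counted as a promoter peak.

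The cells were splenic CD8+ T cells of OT1 mice, which carry a transgenic T cell receptor against an ovalbumin peptide. Both groups were activated for 48 h with anti-CD3 (2 μg/ml), anti-CD28 (2 μg/ml) and IL-2 (20 ng/ml), and then expanded for 3 days in IL-2. The GSK group received 0.5 μM GSK2879552, which blocks the histone demethylase LSD1 irreversibly, through both phases, and the Veh group received vehicle. Each treatment was profiled with antibodies to LSD1, to RNA polymerase II (Pol II) and to the histone marks H3K4me1, H3K4me2, H3K4me3 and H3K27ac, 1 library for each, so that no value below has a replicate and no test was possible. The data therefore describe T cells activated by antibodies in culture, all with 1 receptor specificity, and not cells that had met a target.

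H3K4me1 and H3K4me2, the marks that LSD1 erases, are found at enhancers and beside promoters, H3K4me3 at active promoters, H3K27ac at active promoters and enhancers, and Pol II where genes are transcribed. The strength of a peak is given as its fold enrichment, the ChIP pileup relative to the local background. For some peaks the −log10 p or the percentile among all peaks of the same list is added. Fold and −log10 p can rank a peak differently. The lists held from 2751 peaks for H3K27ac in GSK to 40272 for H3K4me1 in GSK, and in H3K27ac and H3K4me2 the GSK list was the shorter, with 2751 against 7410 and 9437 against 15219 peaks. Read depth is not part of a peak list, and the uniquely mapped read pairs that the study states for its libraries were not used here to scale the lists. By that statement the GSK library had fewer pairs than the Veh library for H3K27ac, by more than for any other antibody, and also for H3K4me2 and LSD1, and more pairs for H3K4me1, H3K4me3 and Pol II. A peak present in only 1 treatment is therefore a difference in what was called, and the part of depth in it was not tested. All 6 CD8+ T cell marker genes examined (Cd3e, Cd3g, Cd8a, Cd8b1, Lck and Cd2) carried promoter H3K4me3 in both treatments. Fewer of them had the other marks of activity. Promoter H3K27ac was called at 4 of the 6 in Veh and 1 in GSK, and Pol II at 3 and 4, with neither at Cd8a. Promoter H3K4me3 was called at 0 of 4 B cell markers, 0 of 2 natural killer cell markers, 0 of 2 markers of CD4+ and regulatory T cells, 0 of 6 neutrophil and mast cell protease genes and 1 of 4 myeloid markers (Cd14), and none of these genes had promoter H3K27ac or Pol II. Of the 2 natural killer cell markers, Ncr1 had no promoter peak in any list and Klrb1c had H3K4me1 in Veh alone, and Cd4 and Foxp3 had none in any list.

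The promoters with an LSD1 or Pol II peak were those of Gzmb, Prf1, Fasl and Gzmc, and the 200 bases before each TSS are shown. Promoter peaks were counted over TSS ± 1 kb, and not all of them overlap the printed bases. The H3K4me3 peaks of Gzmb and Fasl, for example, lie outside them. Sequences are from RefSeq's GRCm38.p6 (mm10), read 5′ to 3′ on the strand of the gene, and end at the base before the TSS. Capitals mark matches on either strand to the letters TGTGGT (the RUNX motif), AGGAAG (an ETS motif), TGANTCA (AP-1) and TGACGTCA (the cyclic AMP response element, CRE).
Gzmb, chr14:56262335-56262534, minus strand: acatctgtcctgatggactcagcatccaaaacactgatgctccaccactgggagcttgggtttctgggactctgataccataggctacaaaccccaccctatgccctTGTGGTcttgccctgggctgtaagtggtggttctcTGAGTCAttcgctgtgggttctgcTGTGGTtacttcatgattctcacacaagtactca
Gzmc, chr14:56234658-56234857, minus strand: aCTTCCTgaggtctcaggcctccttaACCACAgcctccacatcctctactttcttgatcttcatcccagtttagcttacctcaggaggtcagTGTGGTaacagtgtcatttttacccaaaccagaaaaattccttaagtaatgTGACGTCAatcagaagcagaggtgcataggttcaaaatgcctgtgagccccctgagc
Prf1, chr10:61297636-61297835, plus strand: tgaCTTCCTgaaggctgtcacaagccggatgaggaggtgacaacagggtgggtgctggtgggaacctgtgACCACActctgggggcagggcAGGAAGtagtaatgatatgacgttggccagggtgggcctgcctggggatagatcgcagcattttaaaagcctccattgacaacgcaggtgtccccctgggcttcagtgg
Fasl, chr1:161788496-161788695, minus strand: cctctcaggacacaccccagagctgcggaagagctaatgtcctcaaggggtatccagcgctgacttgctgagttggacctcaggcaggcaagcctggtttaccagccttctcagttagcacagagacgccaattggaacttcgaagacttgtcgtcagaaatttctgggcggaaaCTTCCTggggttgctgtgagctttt
Gzmb held the RUNX letters at 93 and 34 bases before the TSS, with the AP-1 letters between them. In Gzmc a CRE stood 57 bases before the TSS, Prf1 held ETS letters on both strands, and Fasl held none of the RUNX letters in this window. None of the marked matches overlapped another.

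The strongest LSD1 peaks away from promoters lay 13.9 kb upstream of Gzmb, 9.31 kb downstream of the Fasl TSS and within intron 1 of Gzmm. Their summits with 75 bases on either side are shown on the plus strand of the same build.
Gzmb upstream, chr14:56276151-56276301: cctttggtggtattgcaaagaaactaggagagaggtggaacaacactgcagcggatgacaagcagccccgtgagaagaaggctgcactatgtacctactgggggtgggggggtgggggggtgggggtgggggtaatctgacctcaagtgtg
Fasl downstream, chr1:161779113-161779263: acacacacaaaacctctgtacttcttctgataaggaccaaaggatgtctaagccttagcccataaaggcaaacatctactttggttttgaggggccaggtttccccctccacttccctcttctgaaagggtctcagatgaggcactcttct
Gzmm intron 1, chr10:79692241-79692391: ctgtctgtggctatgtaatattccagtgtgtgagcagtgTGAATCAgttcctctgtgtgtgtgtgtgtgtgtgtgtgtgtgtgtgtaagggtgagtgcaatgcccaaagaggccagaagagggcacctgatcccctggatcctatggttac
Only the Gzmm summit of these 3 held a match to a searched motif, the AP-1 letters 36 bases before the summit, which 10.4% of the 12563 LSD1 summits away from promoters in Veh also held. The Gzmb window held several runs of G, and the Gzmm summit lay within a run of alternating G and T.

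Promoter chromatin divided the members into 3 sets. Gzmb, Prf1 and Fasl carried H3K4me3 and Pol II in both treatments. Gzmc, Gzma and Gzmm carried H3K4me1 in both treatments but neither H3K4me3 nor Pol II nor H3K27ac in either. Gzmd, Gzme, Gzmf and Gzmk had no promoter peak in any of the 12 lists.

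**Figure D1:**
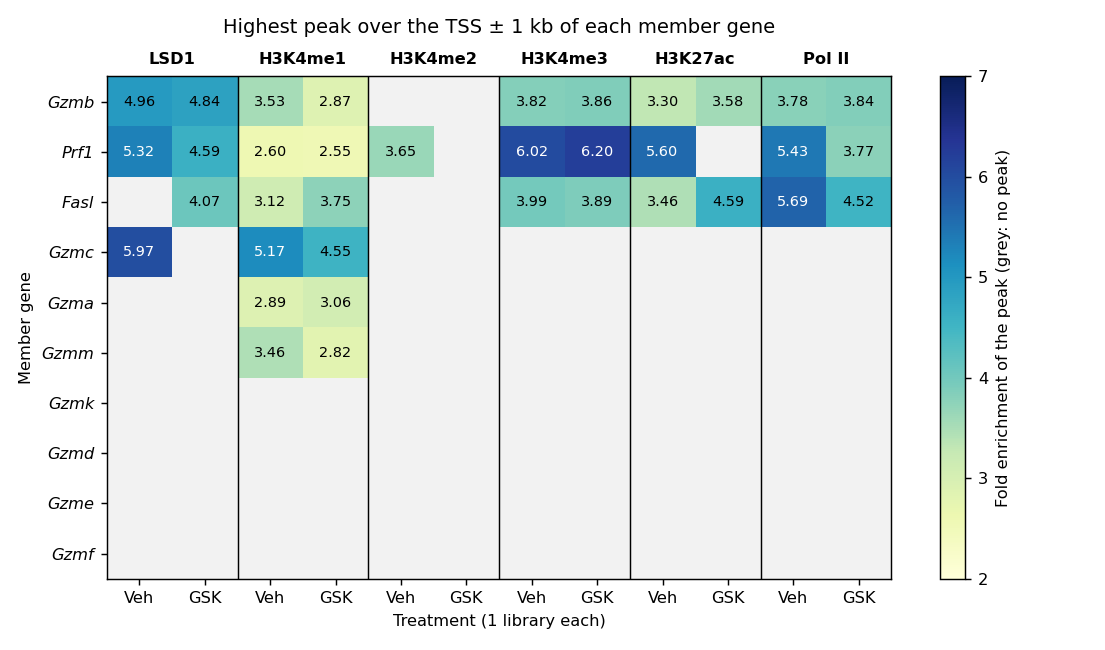
Fold enrichment of the highest peak over the TSS ± 1 kb of each member gene (rows) in each of the 12 libraries (columns, 1 library per antibody and treatment), with grey for no peak. Gzmb, Prf1 and Fasl fill the H3K4me3 and Pol II columns of both treatments, and the rows of Gzmk, Gzmd, Gzme and Gzmf are empty.

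Counted over the 10 members, the promoter calls stood near or below the share of all genes for most antibodies. H3K4me3 was called at 3 members in Veh and 3 in GSK, beside 50.0% and 51.1% of all genes. Pol II was likewise called at 3 and 3, beside 29.3% and 24.9%. The same 3 genes, Gzmb, Prf1 and Fasl, made up both counts.

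LSD1 was called at 3 member promoters in Veh and 3 in GSK, where 36.3% and 41.6% of all genes had such a peak. H3K4me1 was called at 6 and 6 members, beside 30.3% and 36.8% of all genes, above the share of all genes in both treatments. H3K4me2 was called at 1 member in Veh and 0 in GSK, beside 39.0% and 28.2%. H3K27ac was called at 3 members in Veh and 2 in GSK, beside 20.5% and 8.58%.

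In all, 4 promoter calls differed between the treatments. The LSD1 peak at Gzmc was called in Veh only, a state that 4.44% of all genes had, and the LSD1 peak at Fasl in GSK only, which 9.74% of all genes had. The other 2 differences were both at Prf1, where H3K4me2 (12.8% of all genes in Veh only) and H3K27ac (12.3% in Veh only) were called in Veh and not in GSK. No member went from no promoter peak in Veh to a promoter peak in GSK for H3K4me1, H3K4me2, H3K4me3, H3K27ac or Pol II, counted per gene over all its TSSs.

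Gzmb encodes granzyme B, and its promoter carried the same 5 of 6 antibodies in Veh and GSK, all but H3K4me2. H3K4me3 covered 2521 bp in Veh and 2553 bp in GSK, from the TSS into the gene, at a fold of 3.82 and 3.86. These folds stood only at percentiles 9.66 and 9.90 of their lists, whereas the −log10 p of 83.4 and 79.8 stood at percentiles 68.4 and 68.0. The Gzmb H3K4me3 peak was thus wide and of low average enrichment, and nearly equal between the treatments.

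Pol II lay over exon 1 of Gzmb at a fold of 3.78 in Veh and 3.84 in GSK. It was the only paired Pol II peak of the members whose fold was not lower in GSK. LSD1 at the Gzmb promoter had a fold of 4.96 with its summit 95 bp upstream of the TSS in Veh, and of 4.84 with its summit 97 bp downstream in GSK. The Veh summit fell on the printed window and the GSK summit in exon 1, within peaks of 405 and 505 bp that overlapped.

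H3K27ac at Gzmb spanned 1270 bp in Veh at a fold of 3.30 and 394 bp in GSK at 3.58. Its −log10 p was 13.0 in Veh and 7.26 in GSK, at percentiles 80.0 and 12.4. By fold the percentiles were 15.2 and 3.49. The median H3K27ac peak was 555 bp wide in the Veh list and 394 bp in the GSK list. H3K4me1 stood upstream of the TSS, at 3.53 in Veh and 2.87 in GSK. In both treatments H3K4me2 was called not at the TSS but in intron 4, 2.65 kb downstream in Veh (fold 4.02) and 2.49 kb downstream in GSK (fold 3.92). A further 2 Veh Pol II peaks lay 2.37 kb and 4.30 kb downstream of the Gzmb TSS, at folds of 2.63 and 2.51, and GSK had none there. They stood at percentiles 0.595 and 0.409 by fold but 52.9 and 47.4 by −log10 p.

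The intergenic element upstream of Gzmb was the most fully marked region of the chromosome 14 locus outside promoters. It spanned chr14:56275328-56276720 and was covered by LSD1, H3K4me3 and H3K27ac in both treatments and by Pol II in Veh. LSD1 there had a fold of 7.11 in Veh and 8.05 in GSK, at percentiles 93.1 and 95.9, above the LSD1 fold of the Gzmb promoter in both. This was the only paired LSD1 peak of the members with the higher fold in GSK. H3K4me3 had folds of 4.92 and 4.99 and H3K27ac of 3.46 and 4.25, while the Veh Pol II peak (3.57) had no GSK partner. The −log10 p of H3K27ac there was 11.2 in Veh and 8.19 in GSK. H3K4me1 lay next to the element, 16.1 kb upstream, at 2.21 and 2.13.

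Gzmc, the granzyme gene next to Gzmb, starts 27.7 kb downstream of the Gzmb TSS and shares 78.0% of aligned coding bases with it. Its promoter had LSD1 at a fold of 5.97 in Veh, at percentile 86.0, with the summit 38 bp upstream of the TSS and 19 bases from the start of the CRE. No GSK LSD1 peak overlapped it. H3K4me1 was called there at 5.17 in Veh and 4.55 in GSK, percentiles 89.6 and 78.4, the highest H3K4me1 fold of any member promoter in both. A further H3K4me1 peak lay 6.52 kb upstream of Gzmc, at 6.06 in Veh and 5.49 in GSK, at percentiles 98.0 and 95.4. The Gzmc promoter thus had strong H3K4me1 and, in Veh, LSD1, with no H3K4me3, H3K27ac or Pol II.

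**Figure D2:**
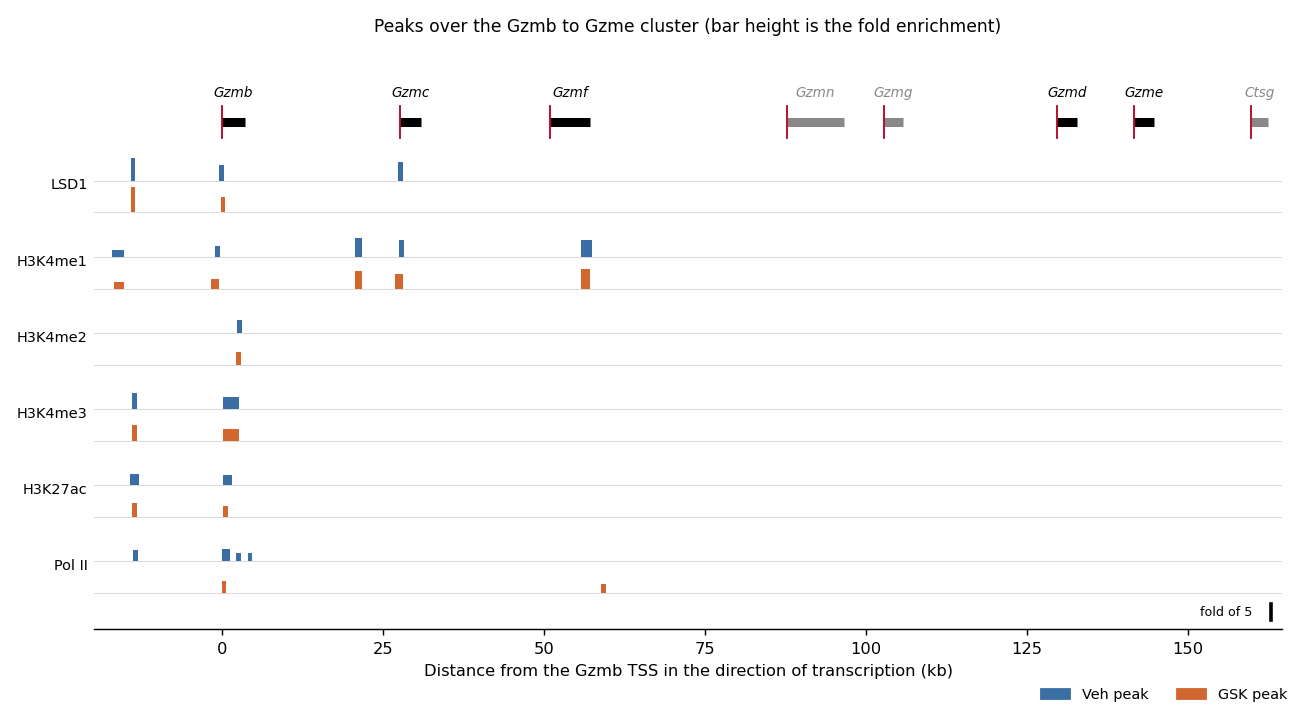
Peaks of the 12 lists along the chromosome 14 granzyme locus, by distance from the Gzmb TSS in the direction of transcription (kb); each antibody has a row for Veh (blue) and one for GSK (orange), bar height is fold enrichment to the printed scale, narrow peaks are drawn at a minimum width, and red ticks mark TSSs (black members, grey other genes). All peaks lie at the left, around Gzmb, Gzmc and Gzmf, and none over Gzmn, Gzmg, Gzmd, Gzme or Ctsg.

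The remaining granzyme genes of the cluster were nearly bare. Gzmf had H3K4me1 in intron 4, at 5.16 in Veh and 6.07 in GSK (percentiles 89.6 and 98.3), and a weak GSK Pol II peak beyond its 3′ end (fold 2.77, −log10 p 3.11). No peak of any list lay at Gzmd, Gzme, Gzmg or Gzmn, or at Ctsg, the neutrophil protease gene at the end of the locus. Across the whole window of 185 kb there were 17 Veh and 14 GSK peaks.

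Since these genes are copies of each other, reads from 1 may match several. Gzmd and Gzme shared 94.8% of aligned coding bases, and Gzme and Gzmg 90.1%, and reads were kept by the authors only where they mapped uniquely. Stretches of 100 bases that occur more than once in the genome made up 13.7% of the cluster window, against 0.600% to 4.11% of the 5 other windows. Within the promoter windows they made up 15.4% at Gzmf, 6.15% at Gzmd and 0.946% at Gzme, and none at Gzmb or Gzmc. Most of the sequence at the promoters without peaks was therefore unique at that length, and the part of repeated sequence in the absence of peaks was not tested.

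The promoters of the duplicated genes differ within the CRE, which is why the 40 bases around it are shown, with the octamer in capitals.
Gzmc, chr14:56234691-56234730, minus strand: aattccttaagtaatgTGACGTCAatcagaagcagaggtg
Gzmf, chr14:56211466-56211505, minus strand: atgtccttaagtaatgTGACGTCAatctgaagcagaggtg
Gzmd, chr14:56132631-56132670, minus strand: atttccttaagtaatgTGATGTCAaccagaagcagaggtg
Gzme, chr14:56120664-56120703, minus strand: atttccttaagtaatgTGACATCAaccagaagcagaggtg
Gzmc and Gzmf had the whole CRE, which 1.47% of the 32851 promoters hold. Of the 12563 Veh LSD1 summits away from promoters, 0.366% held it within 75 bases. LSD1 summits at promoters, such as that of Gzmc, were not counted for it. A link between LSD1 and the CRE was not tested. Counted from the first base of the octamer, Gzmd differed from it by C4T and Gzme by G5A. Over the 200 bases before the TSS, Gzmc matched Gzmd, Gzme and Gzmf at 88.3%, 90.3% and 86.9% of aligned bases and Gzmb at 62.3%. Of these 4 related promoters, that of Gzmc was the only one with a peak in any list, whereas Gzmf, with the same octamer, had none.

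RUNX letters were found in 7 of the 11 member promoter windows (Gzmm has 2 TSSs), beside 11.2% of all promoters. The 7 were those of Gzma, Gzmb, Gzmc, Gzmd, Gzme, Gzmf and Prf1, so they included 4 copies of 1 related sequence as well as promoters with and without peaks. The ETS letters were in 7 of 11 windows, beside 24.7% of all. These 7 again included the 4 related promoters, those of Gzmc, Gzmd, Gzme and Gzmf. The AP-1 letters were found in that of Gzmb alone (5.48% of all) and the STAT letters TTCNNNGAA in the first of Gzmm alone (5.49% of all). Neither the T-box letters AGGTGTGA (0.907% of all) nor the GFI1 core AATCNNNGC (7.20% of all) were found in any member window. A match is a run of letters and was not measured as binding.

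Prf1, which encodes perforin, had a compact promoter with the largest number of antibodies of any member in Veh, all 6, and 4 in GSK. H3K4me3 had a fold of 6.02 over 775 bp in Veh and 6.20 over 881 bp in GSK. This was the highest H3K4me3 fold at a member promoter, and its ratio of 1.03 stood beside a median of 1.02 for all paired H3K4me3 peaks. Its −log10 p of 22.6 in Veh and 29.1 in GSK was below that at Gzmb (83.4 and 79.8) and Fasl (63.0 and 51.0). Pol II stood at 5.43 in Veh and 3.77 in GSK, a ratio of 0.694, beside a median ratio of 0.825 for all paired Pol II peaks.

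LSD1 at the Prf1 promoter had a fold of 5.32 in Veh and 4.59 in GSK, with summits 652 and 741 bp upstream of the TSS. H3K27ac was called in Veh alone, as a peak of 227 bp at a fold of 5.60, percentile 95.1 of its list. H3K4me2 in Veh covered the start of the gene at 3.65 with a −log10 p of 6.81 (percentile 19.2), near the weak end of its list. The strong H3K27ac peak and the weak H3K4me2 peak thus both lacked a GSK partner. H3K4me1 flanked the promoter at 2.60 and 2.55.

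Within Prf1, intron 2 held an LSD1 peak in Veh (chr10:61301055-61301440) at a fold of 5.11 and −log10 p of 13.5, nearly the −log10 p of its promoter peak, 13.6. No GSK LSD1 peak overlapped it. The other elements of the Prf1 window carried H3K4me1 in both treatments: 15.6 kb and 7.30 kb upstream, in intron 2, and 9.71 kb downstream of the TSS. At all 5 distal Veh H3K4me1 peaks the fold was lower in GSK, with ratios from 0.847 to 0.956, beside a median of 0.962 over all paired H3K4me1 peaks. The 2 most downstream Veh peaks were joined in 1 GSK peak. H3K4me2 was called 7.45 kb upstream in Veh (fold 5.1) and nowhere in the window in GSK.

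**Figure D3:**
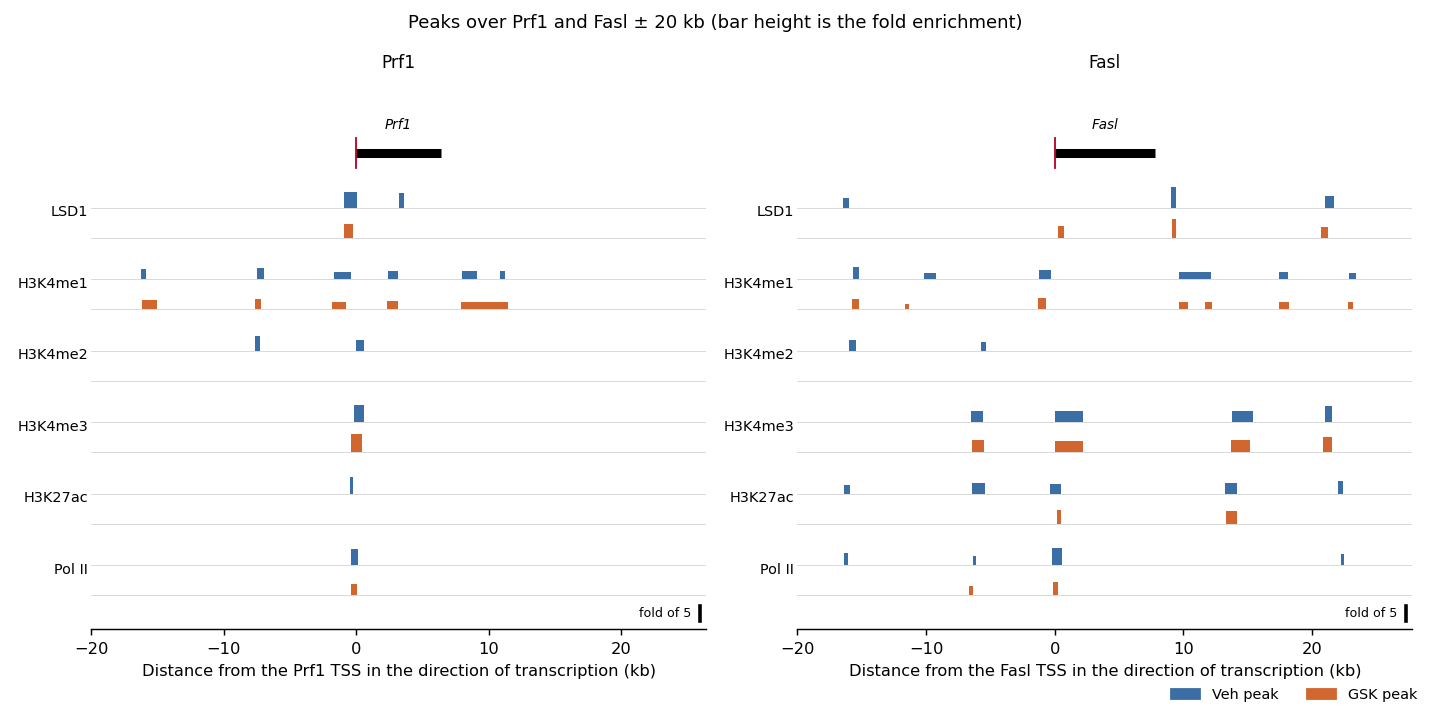
Peaks of the 12 lists around Prf1 and Fasl, by distance from the TSS in the direction of transcription (kb), drawn as rows of Veh (blue) and GSK (orange) peaks with bar height as fold enrichment to the printed scale and narrow peaks at a minimum width. H3K4me3 rows match between the treatments in both windows, and the H3K4me2 rows hold peaks in Veh only.

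Fasl, the ligand of the death receptor route, had more peaks in its window than any other locus, 24 in Veh and 18 in GSK. Its promoter H3K4me3 peak, like that of Gzmb, was wide and low, 2180 bp at 3.99 in Veh and 2159 bp at 3.89 in GSK. Pol II over exon 1 stood at 5.69 in Veh and 4.52 in GSK, at the nearly equal percentiles 80.6 and 80.2. H3K27ac was 900 bp wide at 3.46 in Veh and 283 bp wide at 4.59 in GSK, and upstream of the TSS H3K4me1 stood at 3.12 and 3.75. The −log10 p of these H3K27ac peaks was 9.46 in Veh and 7.93 in GSK.

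LSD1 was called at the Fasl promoter in GSK alone, at a fold of 4.07 and −log10 p of 6.50, with the summit 279 bp downstream of the TSS in exon 1. It was at percentile 36.7 of its list, below the LSD1 peaks of Gzmb and Prf1 in GSK.

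Upstream of Fasl were 2 elements with several marks. The nearer, 6.0 kb upstream (chr1:161793846-161795137), had H3K4me3 in both treatments (3.97 in Veh and 4.14 in GSK), H3K4me2 (2.97) and H3K27ac (3.56) in Veh, and a Pol II peak in each treatment (3.30 and 3.16) that did not overlap the other. Those 2 Pol II peaks had a −log10 q of 1.44 in Veh and 1.61 in GSK, below 3. The farther element, 15.8 kb upstream (chr1:161803697-161804960), had H3K4me1 in both (4.19 and 3.48). LSD1 (3.42), H3K4me2 (3.54), H3K27ac (3.17) and Pol II (4.14) were called there in Veh only. With 5 antibodies this element had more than any other away from promoters, and 4 of the 5 were without a GSK peak. Those LSD1, H3K4me2 and H3K27ac peaks were low in their lists by fold, at percentiles 17.7, 8.45 and 11.1, while the Pol II peak stood at 56.2.

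Downstream of Fasl the peaks were more often shared. LSD1 9.31 kb downstream of the TSS (chr1:161779044-161779475 in Veh) had folds of 7.09 and 6.23, percentiles 93.0 and 85.3, and no other antibody overlapped it. H3K4me3 and H3K27ac coincided 14.3 kb downstream in both treatments, with H3K4me3 at 3.98 and 4.07 and H3K27ac at 3.63 and 4.24. There the −log10 p of H3K27ac was 12.3 in Veh and 7.93 in GSK. LSD1 (3.97 and 3.50) and H3K4me3 (5.57 and 5.19) met 21.2 kb downstream. Beyond them, 22.3 kb downstream, H3K27ac (4.24) and Pol II (3.69) were called in Veh only.

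Gzma encodes granzyme A, and neither H3K27ac nor Pol II was called anywhere in its window. Its promoter had H3K4me1 alone, at 2.89 in Veh and 3.06 in GSK. LSD1 stood just upstream, with summits at 1.57 kb in Veh (fold 4.34) and 1.35 kb in GSK (3.27), and the Veh peak began 2 bp outside the promoter window. With promoters taken as TSS ± 2 kb, Gzma therefore counted as an LSD1 promoter in both treatments. The ratio of the folds, 0.753, was the lowest of the paired LSD1 peaks of the members, and the percentile went from 54.2 in Veh to 8.04 in GSK.

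A second LSD1 peak lay 10.2 kb downstream of the Gzma TSS, in intron 11 of Cdc20b, with folds of 5.65 and 5.14. H3K4me1 was called at that element in GSK only. At the far end of the window, 19.8 kb upstream, H3K4me1 (4.04 and 4.03), H3K4me2 (5.91 and 5.60) and H3K4me3 (5.75 and 6.23) were present in both treatments. This was 1 of only 2 elements away from promoters where an H3K4me2 peak was kept in GSK, the other being intron 4 of Gzmb.

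Gzmk encodes granzyme K, a trypsin-like protease like granzyme A, and its gene lies on the same chromosome. Its promoter was without peaks, and its window held no H3K27ac and no Pol II. An element 17.4 kb upstream had H3K4me1 in both treatments, H3K4me3 at 5.90 in Veh and 6.88 in GSK, and H3K4me2 in Veh (4.36). H3K4me1 2.67 kb upstream had folds of 3.53 and 3.40. Downstream, 10.7 kb from the TSS, Veh had an LSD1 peak (3.64, percentile 28.6) within a broad H3K4me1 element found in both treatments.

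**Figure D4:**
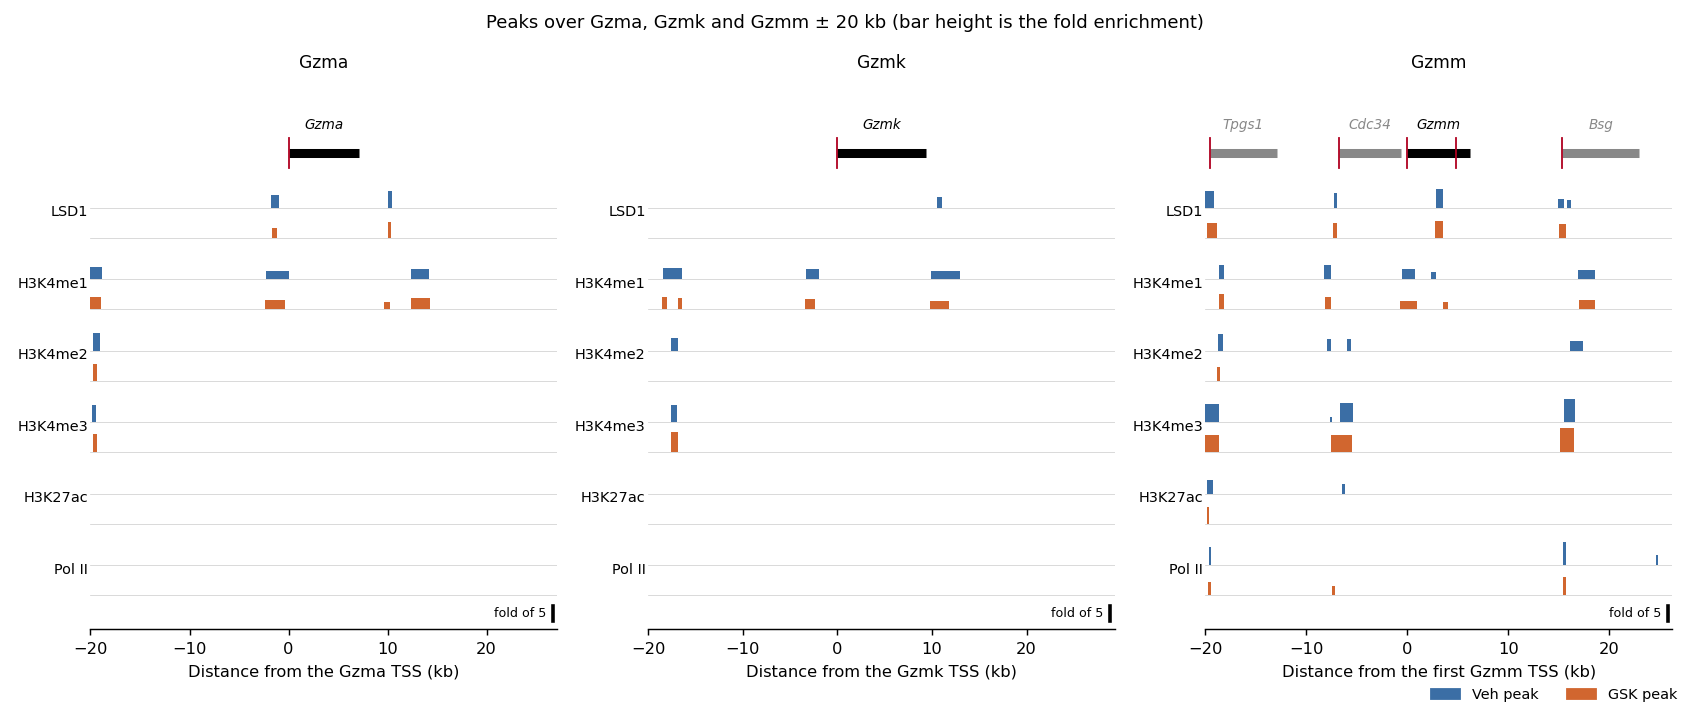
Peaks of the 12 lists around Gzma, Gzmk and Gzmm, by distance from the TSS in the direction of transcription (kb), with Veh in blue, GSK in orange, bar height as fold enrichment to the printed scale, narrow peaks at a minimum width and red ticks for TSSs. The H3K27ac and Pol II rows are empty at Gzma and Gzmk, and at Gzmm nearly all such peaks stand at the neighbouring genes drawn in grey.

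Gzmm encodes granzyme M, which cuts after methionine and leucine. Its neighbours carried H3K4me3 and Pol II, and its window of 23 Veh and 17 GSK peaks was mostly theirs: 18 Veh and 13 GSK peaks lay at the TSSs of Tpgs1, Cdc34 and Bsg. At Bsg, which encodes the surface protein basigin, H3K4me3 had folds of 7.94 and 8.23 and Pol II of 8.0 and 6.04, above any member. At Cdc34, a ubiquitin-conjugating enzyme gene, H3K27ac (3.37) was called in Veh only and Pol II (3.05) in GSK only. Tpgs1, for a subunit of a tubulin polyglutamylase complex, had LSD1, H3K4me3, H3K27ac and Pol II in both.

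At Gzmm itself the marks were H3K4me1 at the first TSS, at 3.46 in Veh and 2.82 in GSK, and LSD1 and H3K4me1 in intron 1. The intronic H3K4me1 peak lay 2.22 kb upstream of the second TSS in Veh (fold 2.47). In GSK it lay 1.02 kb upstream (2.54) and reached the window of that TSS. These H3K4me1 peaks did not overlap. The intronic LSD1 peak lay 1.51 kb upstream of the second TSS and had folds of 6.26 and 5.52, at percentiles 88.4 and 75.1. It was the strongest LSD1 peak of a member gene body in both treatments, at a gene without H3K4me3 or Pol II.

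All 6 windows together held 90 Veh and 70 GSK peaks. Of the Veh peaks 19 were at member TSSs, 18 at other TSSs and 53 elsewhere, and of the GSK peaks 18, 13 and 39. By antibody, H3K4me1 had 28 and 30 peaks, LSD1 16 and 12, H3K4me3 13 and 12, Pol II 12 and 8, H3K4me2 11 and 3, and H3K27ac 10 and 5. Merged across lists, the peaks away from promoters formed 33 elements, of which 14 had H3K4me1 alone, 9 had LSD1, 6 had H3K4me3 and 5 had at least 3 antibodies.

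Members were also counted by peaks away from any TSS within their own windows. LSD1 was found so at 6 members in Veh and 4 in GSK, beside 34.8% and 31.1% of all genes. For H3K4me1 the counts were 8 and 8, beside 54.6% and 58.0%. H3K4me2 was found at 5 and 2 members (23.9% and 13.8% of all genes), H3K4me3 at 4 and 4 (17.4% and 19.6%), and H3K27ac at 2 and 2 (10.7% and 3.95%). Pol II was found at 3 members in Veh and 2 in GSK, beside 22.5% and 22.5%. Members whose windows overlap share peaks, so these counts are not independent.

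Of the Veh peaks away from TSSs in member windows, 6 of 9 LSD1 peaks were overlapped by a GSK peak, beside 34.9% of all such LSD1 peaks. Among LSD1 peaks above the median fold of the list, 5 of 6 were kept in the windows and 53.4% of all, and below it 1 of 3 and 19.4%. The exception above the median was intron 2 of Prf1. H3K4me1 was kept at 18 of 20 (87.7% of all) and H3K4me3 at 6 of 6 (92.0%). Fewer were kept for H3K4me2, 2 of 6 (38.8%), H3K27ac, 2 of 5 (29.1%), and Pol II, 0 of 7 (14.3%). Of those 7 Pol II peaks, 6 stood below the median fold of the list, where 5.73% of all were kept. The 1 other stood above it, where 40.6% of all were kept.

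Peaks found in both treatments allowed the folds to be set side by side. For LSD1 the GSK fold was lower at 7 of 8 member peaks, whereas it was lower at 38.0% of all paired LSD1 peaks. The median ratio of GSK to Veh fold was 0.882 for the members and 1.09 for all. By percentile within the list, 7 of 8 were again lower, against 45.0% of all, and the exception was in both cases the element upstream of Gzmb. Of the 8 member pairs 6 lay away from TSSs, but only 4383 of all 11597 pairs did. Peaks at the TSSs of neighbouring genes were left out of the member pairs alone. The sets therefore differ in place, and the part of this in the contrast was not tested.

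For H3K4me1 the fold was lower in GSK at 17 of 24 member peaks, beside 63.4% of all, with median ratios of 0.968 and 0.962. H3K4me2 was lower at 2 of 2 (41.8% of all), H3K4me3 at 2 of 9 (40.2%), H3K27ac at 0 of 4 (9.70%) and Pol II at 2 of 3 (79.4%). The median ratios of these last 3 stood next to those of all paired peaks, 1.02 and 1.02 for H3K4me3, 1.20 and 1.18 for H3K27ac, and 0.793 and 0.825 for Pol II. Folds of different libraries are not scaled to each other, so each ratio was read against that of all peaks. By percentile within the list, H3K27ac was instead lower in GSK at 3 of 4 member peaks, beside 68.6% of all. By the same measure H3K4me1 was lower at 9 of 24 (49.2% of all) and H3K4me2 at 2 of 2 (63.4%). H3K4me3 was lower at 2 of 9 (43.4%) and Pol II at 2 of 3 (50.7%).

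**Figure D5:**
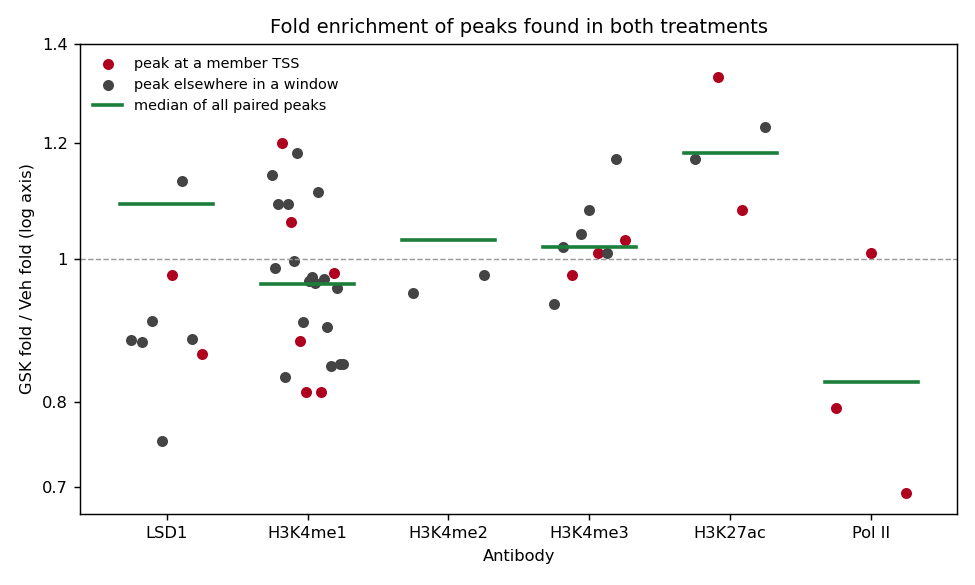
Ratio of GSK to Veh fold enrichment (log axis) for each member window peak found in both treatments, by antibody, with peaks at member TSSs in red, peaks elsewhere in grey and the median of all paired peaks as a green line. Of the 8 LSD1 points 7 lie below both 1 and the line, while the H3K4me3 and H3K27ac points scatter around their lines. The line includes peaks at all TSSs, whereas most LSD1 points lie elsewhere.

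The wider pathway was examined through 29 annotated genes of granule storage, exocytosis, granzyme inhibition, the death receptor arm and the cleaved targets. H3K4me3 was present at 28 of the 29 promoters in both treatments, beside 50.0% of all genes in Veh and 51.1% in GSK, the exception being Serpinb9b, a gene of the serpin family. Most of these genes thus had the promoter mark that 7 of the 10 members lacked. LSD1 was called at 18 of these promoters in Veh and 22 in GSK, beside 36.3% and 41.6% of all genes. Of these, 5 were called in GSK only (Lamp2, Unc13d, Vamp8, Serpinb9 and Dffa) and 1 in Veh only (Fas), states that 9.74% and 4.44% of all genes had. Serpinb9 encodes an inhibitor of granzyme B.

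H3K27ac was called at 19 pathway promoters in Veh and 6 in GSK, beside 20.5% and 8.58% of all genes. H3K4me2 was called at 17 and 7, beside 39.0% and 28.2%, and neither mark was called at any pathway promoter in GSK only. Like Prf1, 13 of the 29 genes had H3K27ac in Veh only and 10 had H3K4me2 in Veh only, states found at 12.3% and 12.8% of all genes. With the Veh list cut to the length of the GSK list, H3K27ac at Prf1 was still called in Veh only, that at Fasl was then called in GSK only, and H3K4me2 at Prf1 was called in neither. Pol II was called at 19 and 16 pathway promoters, beside 29.3% and 24.9% of all genes. The genes with Pol II in Veh only were Lamp1 (a granule membrane protein, fold 3.07), Rab27a (a GTPase of granule docking, 3.20), Vamp8 (a vesicle SNARE, 3.78) and Dffb (a nuclease of apoptosis, 3.58). Serpinb6b, a serpin gene, had Pol II in GSK only (3.13). All 5 of these Pol II peaks had a −log10 p of at most 5.26, below those at Gzmb, Prf1 and Fasl in both treatments. Pol II was called at the promoters of Fadd and Casp8, which act below Fas, in both treatments, and at that of Fas itself in neither.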

How the data were processed

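ChIP-seq peak lists of 12 libraries, 1 per antibody and treatment, were analysed; the 4 inputs had no file and were not analysed here. Before deposit, the authors aligned reads to mm10 with Bowtie2, kept those with a unique position and dropped duplicates with Samtools. They ran MACS2 on each library with input as control and a stated p cutoff of 0.001. Peaks were narrow for LSD1 and Pol II and broad for histone marks. The lowest −log10 q was 3.01 to 3.03 in the histone lists, but 0.523 to 0.787 in those of LSD1 and Pol II. Counts of these antibodies therefore stand at unlike cutoffs. The study states that, to compare signals, libraries were brought to equal read numbers by random picking, without saying whether this came before the peak calls. The deposited values used were fold enrichment (a ratio), −log10 p and −log10 q. Read depth is not part of the deposited lists, and the read pairs the study states were not used.

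Peaks were joined to curated RefSeq transcripts of GRCm38.p6 (26180 genes) with Python 3.11.15, pandas 2.3.3 and numpy 2.4.6, and sequences were aligned with Biopython 1.88. The overlap search was tested on simulated intervals. Peaks touching any TSS ± 1 kb were kept apart from those elsewhere, and peaks were paired between treatments by an overlap of at least 1 bp. With 1 library per group there was no test. Named were all members, Gzmg and Gzmn, genes whose TSS lay in a window with a peak, pathway genes whose H3K4me3 or Pol II call differed or that lacked H3K4me3, and elements with LSD1, H3K27ac or at least 3 antibodies. Other LSD1 calls at pathway genes, the Fas, Fadd and Casp8 Pol II calls, the H3K4me1 elements at Prf1, Gzmc, Gzmf and Gzmk, and the 4 CRE windows were chosen after their values were seen. The members and lists were chosen with earlier results of these data known. Vamp7 was on the pathway list but not in the annotation used here. A further marker list is not reported here.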

Additional observations from a re-analysis of the deposited data

How the results depend on the processing

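Counts were recomputed with lists of equal length, with −log10 q of at least 3 or 5, with 50% of a peak required inside, and with TSS ± 2 kb. Leaving out comparisons that the setting could not move (a list it left as it was, or a count already at 0), 35 of 44 promoter counts and 23 of 34 window counts stayed within 1.5 times. With equal lengths, Veh H3K4me2 came to 0 promoters and 5 window peaks, and Veh H3K27ac to 6 window peaks. With −log10 q of at least 3, Pol II came to 6 window peaks in Veh and 5 in GSK. With −log10 q of at least 5, window peaks came to 10 for Veh LSD1, 7 for GSK LSD1, 5 for Veh H3K4me2, 0 for GSK H3K4me2, 1 for GSK H3K27ac, 5 for Veh Pol II and 3 for GSK Pol II, and promoters to 0 for Veh H3K4me2, 1 for GSK LSD1 (Gzmb) and 0 for GSK H3K27ac. With 50% of a peak inside, GSK H3K4me1 came to 3 promoters and H3K4me3 to 1 in Veh and 1 in GSK (Prf1), because the H3K4me3 peaks of Gzmb and Fasl are wider than their overlap with the window. With TSS ± 2 kb, LSD1 came to 5 promoters in Veh and 5 in GSK. The shared distal LSD1 peaks, with alternatives chosen after seeing the data, were 6 of 9 with equal lengths, 4 of 8 with −log10 q of at least 3, and 6 of 9 with a GSK peak within 1 kb, beside 37.8%, 43.6% and 37.9% of all. Of 36 promoter percentiles, 30 were higher and 6 lower by −log10 p than by fold.

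No paired analysis was possible because each antibody and treatment has 1 library. The study states that experiments were repeated, and the lists hold 1 library each, so no value here has an error. A peak close to the cutoff can be called in 1 treatment alone, and the read depth that the study states, which differed between treatments most for H3K27ac, was not used to scale the lists.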
